A study of Homo sapiens with 9 samples.

Results

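NKX2-1 occupancy was described in the 1 Mb window from 6000000 to 7000000 on chromosome 12 (hg18, band 12p13.31), which holds CD9, TNFRSF1A, SCNN1A and LTBR. The members were the 150 peaks of 5 deposited peak lists that overlapped this window, of 125904 peaks in all lists. The window was chosen on measured values of these lists, with their peak positions already known, so the number and position of peaks in it are given as a description and no test was run. Chromatin immunoprecipitation with sequencing (ChIP-seq) had been carried out in NCI-H3122, NCI-H1819 and NCI-H2087, established lung adenocarcinoma cell lines that all carry an NKX2-1 amplification per the submitters. The cells were grown in RPMI1640 with 10% FBS and received no treatment that the labels name. NKX2-1 was precipitated with the Bethyl Laboratories antibody BL4000 from NCI-H3122 (2 lists, replicates 1 and 2), NCI-H1819 (1 list) and NCI-H2087 (1 list), and FOXA1 with the Abcam antibody ab23738 from NCI-H3122 (1 list). The lines are called H3122, H1819 and H2087 below. Nothing in the labels says that the H3122 replicates were separate cultures. The 4 input samples were not analysed here. FOXA1 was mapped in H3122 only, so its absence beside an H1819 or H2087 peak refers to H3122 cells.

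NKX2-1 is a homeodomain transcription factor needed for lung and thyroid development, and it stays active in alveolar type 2 and airway epithelial cells. FOXA1 is a forkhead pioneer factor that binds many enhancers of the same epithelia. SCNN1A encodes the alpha subunit of the epithelial sodium channel, through which airway and alveolar epithelium takes up sodium and, with it, liquid from the air space. CD9 encodes a tetraspanin of the plasma membrane and of extracellular vesicles, which organises integrins and other membrane proteins. TNFRSF1A encodes tumour necrosis factor receptor 1, a death domain receptor that signals to NF-kB and to cell death. LTBR encodes the lymphotoxin beta receptor of the same receptor family, which signals to non-canonical NF-kB. The gene intervals used here were 6.180 to 6.218 Mb for CD9, 6.308 to 6.322 Mb for TNFRSF1A, 6.326 to 6.356 Mb for SCNN1A and 6.363 to 6.371 Mb for LTBR in hg18. They are approximate and given to the nearest kb. CD9 and LTBR are transcribed towards higher coordinates, TNFRSF1A and SCNN1A towards lower ones. In the RefSeq gene order VWF precedes CD9, PLEKHG6 lies between CD9 and TNFRSF1A, and CD27, TAPBPL and VAMP1 follow LTBR. Whether a peak lies in an exon, an intron or a UTR was not determined, since no hg18 annotation was used.

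The promoter sequences below show the bases before the starts of the genes, because the lists differed in which of them had a peak within 1 kb of these starts. These were replicate 2 and H2087 at CD9 and at SCNN1A, H1819 at TNFRSF1A and no list at LTBR. SCNN1A had no entry among the promoters, so its sequence is not shown. Promoters were matched by symbol in RefSeq (GRCh38.p14) for 3 of the 4 genes, with 4 starts for CD9 and 1 each for TNFRSF1A and LTBR. The 250 bases before a start are printed 5′ to 3′ on the gene's own strand. The positions are chr12:6200150-6200399 (plus strand) for the second CD9 start, chr12:6200592-6200841 (plus strand) for the third, chr12:6342077-6342326 (minus strand) for TNFRSF1A and chr12:6383912-6384161 (plus strand) for LTBR. These GRCh38 positions cannot be set against the hg18 peaks, so the peaks are not placed on the bases. Capitals mark matches, on either strand, to the NKX2-1 cores CAAGTG and CTCAAG or the FOXA core TGTTTNC.
CD9 start 2: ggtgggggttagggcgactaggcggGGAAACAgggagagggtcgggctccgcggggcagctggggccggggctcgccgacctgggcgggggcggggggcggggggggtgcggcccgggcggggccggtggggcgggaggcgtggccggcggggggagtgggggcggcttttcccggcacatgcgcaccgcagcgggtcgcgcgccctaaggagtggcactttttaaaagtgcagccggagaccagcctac
CD9 start 3: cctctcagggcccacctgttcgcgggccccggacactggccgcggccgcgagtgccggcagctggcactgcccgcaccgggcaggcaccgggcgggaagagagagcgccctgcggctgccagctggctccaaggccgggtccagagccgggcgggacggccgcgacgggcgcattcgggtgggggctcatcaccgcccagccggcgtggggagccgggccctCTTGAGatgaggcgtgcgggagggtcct
TNFRSF1A: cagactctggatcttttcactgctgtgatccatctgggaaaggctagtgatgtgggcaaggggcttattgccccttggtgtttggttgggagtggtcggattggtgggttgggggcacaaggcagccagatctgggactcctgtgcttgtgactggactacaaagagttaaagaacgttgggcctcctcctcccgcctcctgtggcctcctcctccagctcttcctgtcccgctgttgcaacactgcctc
LTBR: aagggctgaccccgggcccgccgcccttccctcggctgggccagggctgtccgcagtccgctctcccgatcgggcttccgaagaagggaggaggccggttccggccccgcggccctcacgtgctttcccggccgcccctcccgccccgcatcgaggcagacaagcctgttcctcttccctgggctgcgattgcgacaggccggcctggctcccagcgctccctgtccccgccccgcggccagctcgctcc
The second CD9 start had 1 match to TGTTTNC and the third had 1 match to CTCAAG, read on the opposite strand in both. No match was found before the TNFRSF1A and LTBR starts. Of the starts not printed, the first of CD9 had no match and the fourth had 1 match to TGTTTNC. Over all 35116 RefSeq promoter windows of this length, 9.50% held CAAGTG, 10.4% held CTCAAG and 15.5% held TGTTTNC. G and C made up 76.8% of the bases before CD9 starts 2 and 3, 74.8% before LTBR and 56.8% before TNFRSF1A.

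NKX2-1 peaks were dense in the window in all 3 lines, and FOXA1 peaks less so. The window held 15 peaks of H3122 NKX2-1 replicate 1, 64 of replicate 2, 20 of H1819 NKX2-1, 29 of H2087 NKX2-1 and 22 of H3122 FOXA1. The whole lists held 7469, 48071, 13486, 14441 and 42437 peaks in the same order, or 2.42, 15.6, 4.38, 4.69 and 13.8 per Mb of assembled chromosome. The window thus stood at 6.19 and 4.10 times the list mean for NKX2-1 in replicates 1 and 2 of H3122, 4.57 times in H1819 and 6.19 times in H2087, and at 1.6 times for FOXA1. Among 3067 consecutive windows of 1 Mb, this window and no more than 3 others had as many peaks in either H3122 replicate. In H1819, 21 windows including this one did, in H2087 13, and for FOXA1 641. Neither read depth nor DNA copy number was available for these lines, and their part in these densities was not tested.

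**Figure D1:**
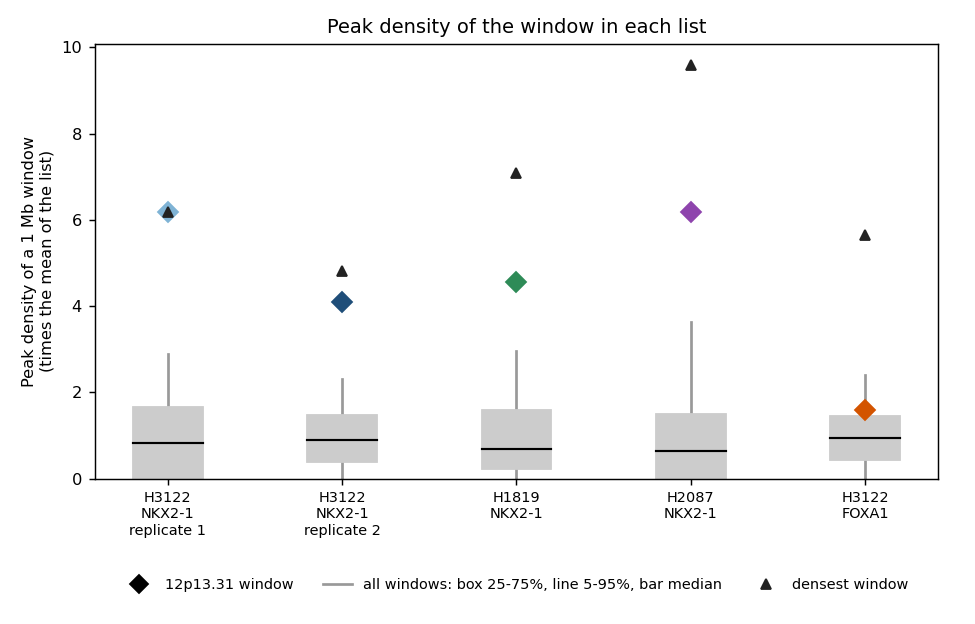
Peak density of the 12p13.31 window (diamonds) and of all 1 Mb windows (grey) in each list, in multiples of the list mean; boxes run from the 25th to the 75th percentile, lines from the 5th to the 95th, bars mark the median and triangles the densest window. The window lies above the 95th percentile in the 4 NKX2-1 lists, at 4.10 to 6.19 times the mean, and at 1.6 times the mean for FOXA1.

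The scores of the peaks in the window were spread much as in the whole lists, apart from lower ones in H1819. Each deposited peak carries a score of the authors' peak caller, higher for stronger evidence, which was used only to rank peaks within a list. The highest scores in the window were 245 and 893 in replicates 1 and 2 of H3122, 771 in H1819, 1764 in H2087 and 955 for FOXA1. The lists themselves reached 1246, 3217, 3201, 3208 and 3214. The median score in the window was 77.0 in replicate 1, 144 in replicate 2, 94.0 in H1819, 158 in H2087 and 125 for FOXA1. The list medians were 73.3, 137, 124, 149.7 and 139 in that order. Among the best-scoring 10% of their own list were 2 of 15, 6 of 64, 2 of 20 and 4 of 29 NKX2-1 peaks and 2 of 22 FOXA1 peaks. Median peak width was 328, 744, 462.5, 776 and 536.5 bp in the window, against 314, 656, 479, 592 and 569 bp in the lists. By these medians, H2087 and replicate 2 peaks of the window were wider than those of their lists, and replicate 1 peaks slightly wider. Those of H1819 and FOXA1 were slightly narrower.

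Stretches without NKX2-1 peaks lay on both sides of the window. The first NKX2-1 peak inside its lower end was a replicate 1 peak at chr12:6043069-6043376 (score 62.3), and the nearest NKX2-1 peak outside that end was an H1819 peak 214 kb away (score 64.3). At the upper end, the last inside were a replicate 2 peak at chr12:6949765-6950420 (score 64.3) and an overlapping H2087 peak ending at 6950483 (score 97.6). The nearest outside was a replicate 2 peak 199.6 kb away (score 106). FOXA1 had peaks 75.6 kb below and 199.7 kb above the window, with scores of 72.5 and 62.3.

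**Figure D2:**
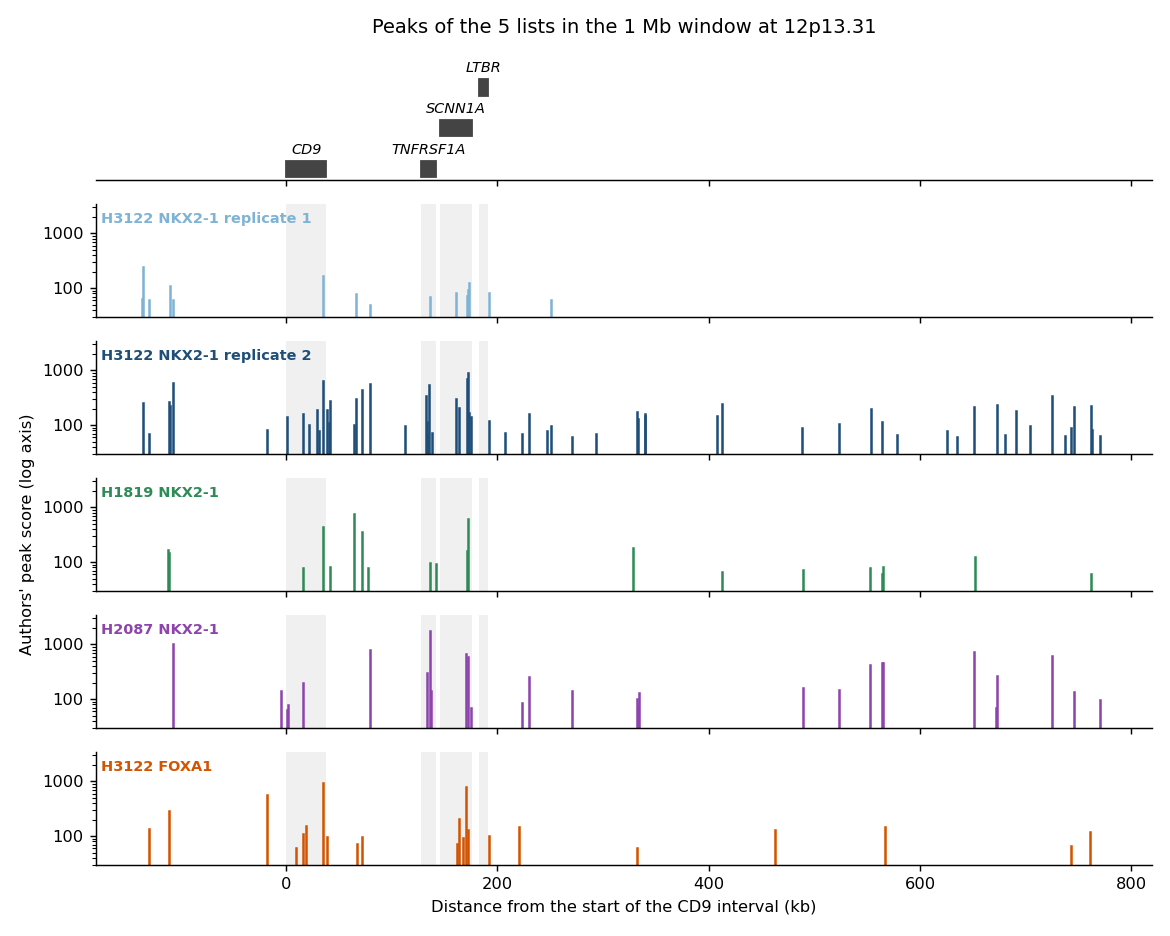
Peaks of the 5 lists along the window; the x axis gives the distance from the start of the CD9 interval in kb, the y axis the authors' peak score on a log axis, and grey bands mark the 4 gene intervals drawn in the top panel. At or below the end of LTBR lie 15 of the 22 FOXA1 peaks and 13 of the 15 replicate 1 peaks. The same part holds 31 of 64 NKX2-1 peaks in replicate 2, 12 of 20 in H1819 and 12 of 29 in H2087.

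SCNN1A held 2 of the 3 regions of the window with NKX2-1 peaks in every list. Its interval of 30 kb had 4 and 6 NKX2-1 peaks in replicates 1 and 2 of H3122, 2 in H1819 and 3 in H2087, with 5 FOXA1 peaks. From the list means, 0.0727, 0.468, 0.131, 0.141 and 0.413 peaks would fall in an interval of this length. A pair of neighbouring regions carried peaks of all 5 lists. The region at chr12:6351576-6352676 scored 92.35 for NKX2-1 in replicate 1 and 893 in replicate 2 of H3122, 609.5 in H1819, 599 in H2087 and 132 for FOXA1. Its replicate 2 peak was the highest of that list in the window, above 95.9% of the replicate 2 list, and the H1819 peak was above 93.6% of its list. The region at chr12:6350088-6351401, 174 bp away, scored 72.4 in replicate 1 and 695.5 in replicate 2 of H3122, 161 in H1819, 655 in H2087 and 782 for FOXA1. FOXA1 stood above 92.3% of its list in this region and above 47.8% at chr12:6351576-6352676. H1819 had the opposite order, above 61.8% of its list here and above 93.6% there. H2087 ranked high in both, above 89.7% and 88.4% of its list.

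The remaining NKX2-1 regions of SCNN1A were not found in all lines. The region at chr12:6352705-6353468, 28 bp beyond the 2 above, had only H3122 peaks, with scores of 123 and 166. There replicate 1 had its highest score in SCNN1A, above 84.5% of that list, while replicate 2 stood above 58.2%. Nearest the start of the gene, chr12:6354520-6355563 had a replicate 2 peak of score 141 and an H2087 peak of score 67.8, which ended about 0.4 kb from the approximate start. Deeper in the gene, chr12:6340047-6340851 had peaks of both H3122 replicates with scores of 83.1 and 303, and no FOXA1. The region at chr12:6342758-6343768 had replicate 2 and FOXA1 peaks, at 204 and 209. FOXA1 alone had peaks at chr12:6341072-6341711 (score 70.4) and chr12:6347609-6348096 (score 94.0).

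CD9 carried high-scoring peaks near its far end in H3122 and H1819, and at its start a mid-ranking replicate 2 peak and a low-ranking H2087 peak. Its 38 kb held 1 and 6 NKX2-1 peaks in replicates 1 and 2 of H3122, 2 in H1819, 3 in H2087 and 4 FOXA1 peaks. At chr12:6214624-6215586 the scores were 167 in replicate 1 and 637 in replicate 2 of H3122, 441 in H1819 and 955 for FOXA1, the highest FOXA1 score of the window. H2087 had no peak there. These peaks stood above 92.9%, 92.4%, 89.4% and 94.4% of their lists. At chr12:6195175-6196159 more lines had a peak but at lower scores, with 159 in replicate 2, 78.6 in H1819, 194 in H2087 and 108.5 for FOXA1, and no peak in replicate 1. Beside the start of the gene, chr12:6180490-6181182 had a replicate 2 peak of score 139 and an H2087 peak of score 62.7, both about 0.5 to 0.6 kb inside the approximate start. They stood above 50.5% and 4.38% of their lists. H2087 had further peaks at chr12:6181390-6181649 (score 79.6) and at chr12:6174915-6175470 (score 142), 4.8 kb before the interval. Replicate 1, H1819 and FOXA1 had no peak within 8 kb of the start, and their nearest lay 34.9, 15.5 and 8.8 kb away. Replicate 2 alone had 3 more peaks inside CD9, with scores of 77.1 to 189.55, and FOXA1 alone had 2, at 61.9 and 152. Just past the end of the gene were 3 regions, at 0.4, 3.0 and 3.7 kb. The first had replicate 2 at 191 with FOXA1 at 96.0, the second replicate 2 alone at 110.3, and the third replicate 2 at 274 with H1819 at 81.9.

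TNFRSF1A had NKX2-1 peaks in all 3 lines. Its 14 kb held 1 and 5 peaks in replicates 1 and 2 of H3122, 2 in H1819, 3 in H2087 and 0 FOXA1 peaks, where 0.193 would fall from the list mean. As at LTBR below, most intervals this short would hold no FOXA1 peak, so that count of 0 does not set the gene apart. The nearest FOXA1 peak to its start was 19.1 kb away, in SCNN1A. The region at chr12:6314916-6316767 scored 68.55 in replicate 1 and 549.9 in replicate 2 of H3122, 94.85 in H1819 and 1764 in H2087. The H2087 peak was the highest of its list in the window, above 98.0% of all H2087 peaks, and replicate 2 stood above 90.5% of its own. H1819 and replicate 1 were ordinary there, above 35.2% and 39.0% of their lists. On its sides, chr12:6311667-6313526 scored 343 and 114 in 2 replicate 2 peaks and 301 in H2087, and chr12:6317217-6317976 scored 72.2 in replicate 2 and 144 in H2087. A replicate 2 peak of score 66.2 lay between them. At the start of the gene only H1819 had a peak, at chr12:6321248-6321697 (score 93.2), about 0.3 kb inside. That H1819 peak stood above 34.4% of its list. The start of TNFRSF1A and the start of CD9 thus had NKX2-1 peaks of different lists, H1819 at TNFRSF1A and replicate 2 and H2087 at CD9. Replicate 1 of H3122 had no peak at either, its nearest being 5.7 and 34.9 kb away.

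LTBR, next to SCNN1A, had no peak of any list inside its 8 kb, where 0.0194 to 0.125 would fall from the list means. An interval this short is mostly empty in such lists, so the count of 0 does not set the gene apart. It lay in a stretch of 16.4 kb without an NKX2-1 region, from 6355564 to 6371958, that also holds the space between SCNN1A and LTBR. The nearest peaks to its start were 7.4 kb away in H2087, 7.6 kb in replicate 2, 8.9 kb for FOXA1, 9.0 kb in replicate 1 and 10.6 kb in H1819. Past its end, chr12:6371912-6372432 had H3122 peaks alone, with NKX2-1 scores of 80.0 and 117 and a FOXA1 score of 100.3.

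**Figure D3:**
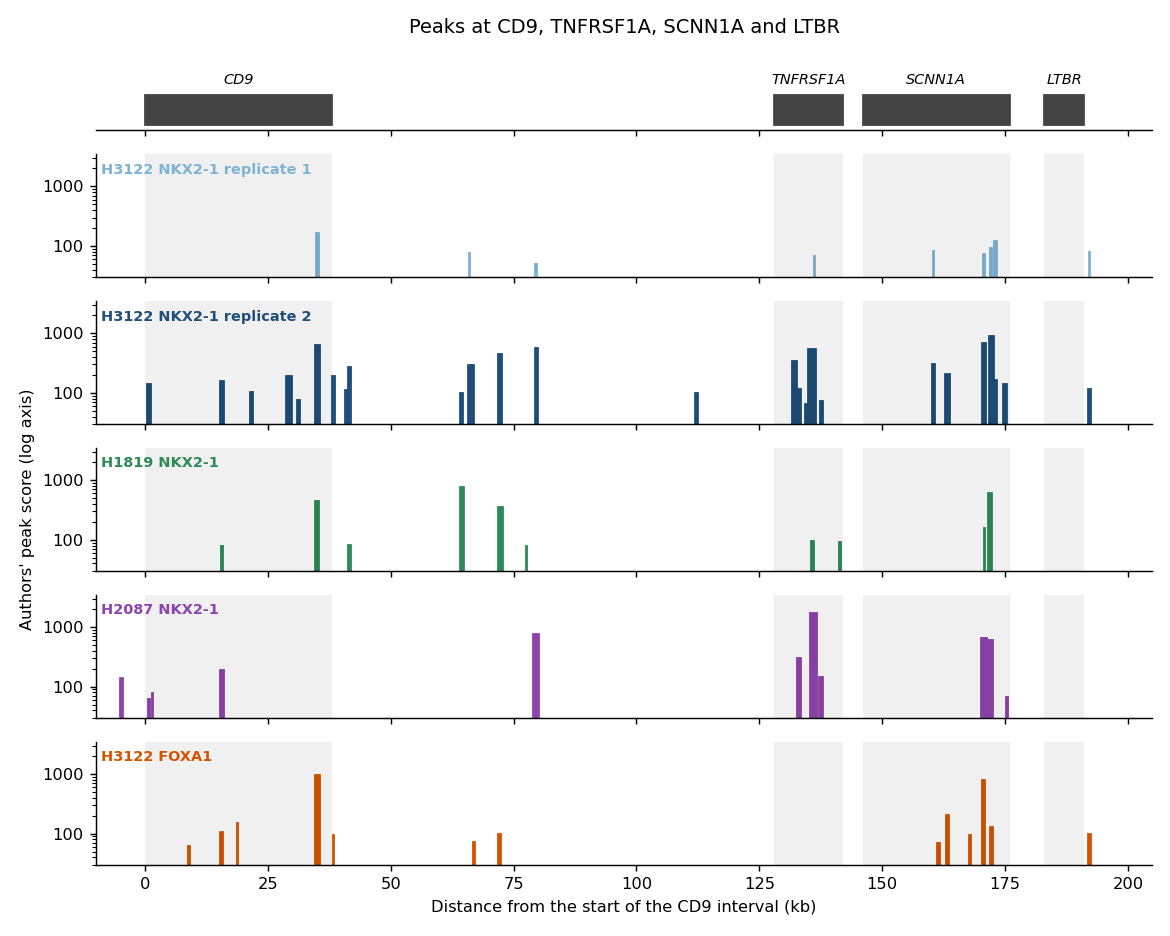
The part of the window from 10 kb before the CD9 interval to beyond LTBR; boxes are peaks at their true width, with the authors' peak score on a log axis, and grey bands mark the genes. SCNN1A has peaks of all 5 lists, at scores up to 893, and the nearest of each list lies 0.4 to 3.6 kb from the SCNN1A start. TNFRSF1A has NKX2-1 peaks up to 1764 and no FOXA1 peak, and LTBR holds no peak.

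Between CD9 and TNFRSF1A the lists, also replicates 1 and 2 of H3122, did not all score highest in the same region. In this interval of 90 kb, H1819 had its highest peak of the window at chr12:6244085-6244819, with a score of 771, above 95.6% of its list. Replicate 2 had 99.1 there, above 33.0% of its list, and neither replicate 1 nor H2087 had a peak. About 15 kb further, chr12:6258905-6260126 scored 779 in H2087 and 565 in replicate 2, above 92.1% and 90.9% of the lists, with a replicate 1 peak of score 50.1 and none in H1819. Between them, chr12:6251729-6252758 scored 447 in replicate 2, 354 in H1819 and 98.6 for FOXA1, with none in H2087. Replicate 1 had its highest score of this interval, 77.0, at chr12:6245762-6247097, where replicate 2 had 294 and FOXA1 73.2. H2087 had only 1 peak in the interval. Of the 9 NKX2-1 regions of this interval, none had peaks in all 3 lines. In the 180 kb before CD9 there were 8 regions, and chr12:6072112-6073576 led them with 1024 in H2087, 584 in replicate 2 and 59.5 in replicate 1, again without H1819 and FOXA1. Replicate 1 had its highest score of the window, 245, at chr12:6044268-6045080, where replicate 2 had 257. FOXA1 was strong at chr12:6161303-6162174, with a score of 560.1 beside a replicate 2 score of 81.5. A stretch of 87.7 kb there, from 6073577 to 6161302, had no NKX2-1 region.

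Beyond LTBR the 629 kb to the end of the window held 37 NKX2-1 regions, of which 34 had no FOXA1 peak. Peaks numbered 2 in replicate 1, 33 in replicate 2, 8 in H1819, 17 in H2087 and 7 for FOXA1. Of the 15 replicate 1 peaks, 13 lay at or below the end of LTBR. The 2 beyond it are no shortage, since the replicate 1 list has a mean of 2.42 peaks per Mb. The highest H2087 score beyond LTBR was at chr12:6830613-6832337, with scores of 716 in H2087, 217 in replicate 2 and 125 in H1819. It was followed by chr12:6904607-6905790, with 613 in H2087 and 334 in replicate 2. The other 3 regions with peaks of replicate 2, H1819 and H2087 had H2087 scores of 158, 416 and 449.8, above 52.1%, 81.8% and 83.3% of that list. They lay at chr12:6668202-6669392, chr12:6732562-6733640 and chr12:6743384-6744303. The highest H1819 score here was 179.5, at chr12:6508312-6508904, where no other list had a peak.

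**Figure D4:**
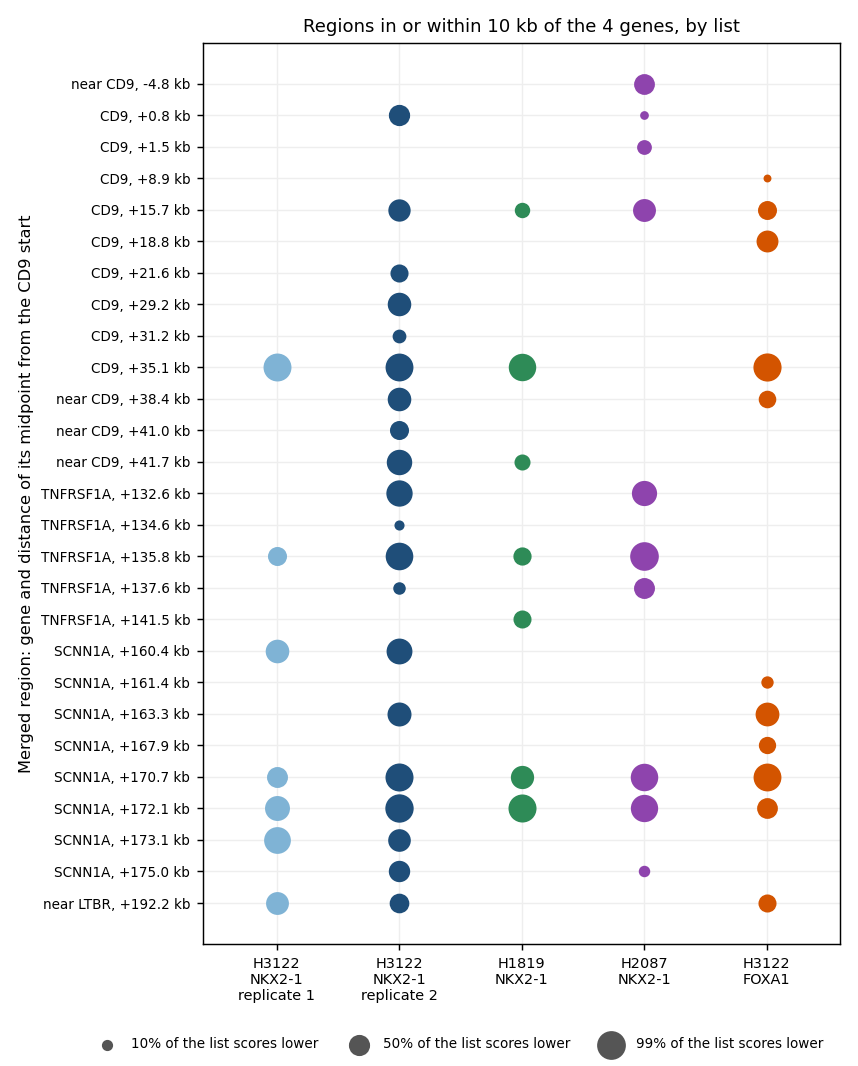
The 27 merged regions in or within 10 kb of the 4 genes (rows, with the distance of the midpoint from the CD9 start in kb) against the 5 lists; a dot marks a peak and its size the percentage of the list with a lower score. The rows of all 3 lines with both H3122 replicates are 1 in TNFRSF1A and 2 in SCNN1A, and FOXA1 is missing from the TNFRSF1A rows.

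Overlapping NKX2-1 peaks merged into 72 regions, of which a larger share than in the whole series had peaks of several lists. Peaks of 1 list only made up 44.4% of the regions (32 of 72), against 71.8% in the whole series. Regions occupied in each of the 4 NKX2-1 lists numbered 3, or 4.17% (95% Wilson interval 1.43 to 11.5), against 1.61% in the series. These are the 2 SCNN1A regions and the TNFRSF1A region described above. With either H3122 replicate accepted, which here equals leaving out the shorter replicate 1, the number was 8, or 11.1% against 4.61% in the series. Of the added regions, 1 was in CD9 (chr12:6195175-6196159 with its FOXA1 peak) and 4 were those beyond LTBR named above. Peaks also overlapped more often list by list in the observed shares. The window was chosen with its peaks known and stood at 4.10 to 6.19 times the mean of the NKX2-1 lists. The sharing of peaks is therefore no separate evidence. In replicate 2, 39.1% of the window's peaks had an H2087 peak, 23.4% an H1819 peak and 21.9% a replicate 1 peak, against 20%, 14.7% and 12.5% in the series. Of the H2087 peaks 82.8% and of the H1819 peaks 80.0% had a replicate 2 peak, against 67.7% and 53.4%. H1819 peaks had an H2087 peak in 45.0% of cases (9 of 20) and H2087 peaks an H1819 peak in 31.0% (9 of 29), against 22.8% and 21.0%. Of the replicate 1 peaks, 93.3% (14 of 15) had a replicate 2 peak, against 81.7%. The intervals on counts this small are wide. They include the series value for regions in each of the 4 lists and for replicate 1 peaks with replicate 2 (70.2 to 98.8). The same holds for H2087 peaks with replicate 2 (65.5 to 92.4) and with H1819 (17.3 to 49.2). For replicate 2 peaks with H1819 the interval starts at 14.7, beside a series value of 14.7. All intervals reflect counting error alone, because peaks of 1 library are not replicates of a condition. An interval without the series value is therefore not a test result.

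The offsets between overlapping peaks are given as a description, since peaks that overlap must have near midpoints. The midpoints of replicate 2 peaks and overlapping peaks differed by a median of 63.5 bp for 14 replicate 1 peaks, 105.5 bp for 16 H1819 peaks, 114.5 bp for 24 H2087 peaks and 75.5 bp for 14 FOXA1 peaks. The largest offsets were 449, 492, 474 and 532 bp. The 50 replicate 2 peaks of the window without a FOXA1 peak have no such offset.

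In the window, as in the whole series, most NKX2-1 regions had no FOXA1 peak, and the share with one was lower in the window. Of the 72 regions, 58 had no FOXA1 peak and 14 did, or 19.4% (12 to 30), against 39.7% in the series. In replicate 2, the list with the most peaks, 14 of 64 peaks or 21.9% (13.5 to 33.4) had FOXA1, against 47.8% of the list. The share was 33.3% against 50.3% in replicate 1, 13.8% against 31.6% in H2087 and 35.0% against 28.7% in H1819, where the order was the opposite. The replicate 1 and H1819 intervals, 15.2 to 58.3 and 18.1 to 56.7, include the series values. From the FOXA1 side, 14 of 22 peaks or 63.6% (43.0 to 80.3) had an NKX2-1 peak of any list, against 56.5%. The window was chosen with its peaks known, at 4.10 times the list mean for replicate 2 and 1.6 times for FOXA1. With 22 FOXA1 peaks for 64 replicate 2 peaks, these counts keep the replicate 2 share low. That share is thus no separate result. Of the 3 regions of all 3 lines, 2 had FOXA1 (66.7%), against 55.7% of such regions in the series.

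The part without FOXA1 was unevenly placed along the window. At or below the end of LTBR, 24 NKX2-1 regions had no FOXA1 and 11 had it. Beyond LTBR these numbers were 34 and 3. In replicate 2 peaks the FOXA1 share was 35.5% (11 of 31) in the first of these parts and 9.09% (3 of 33) in the other. FOXA1 is found more often at high-scoring peaks of the list, and the median replicate 2 score was 191 in the first part and 106 in the other. Over the whole replicate 2 list, peaks of the same score deciles had FOXA1 in 53.8% and 40.2% of cases. The 2 parts held only 15 and 7 FOXA1 peaks. If each of these met 1 replicate 2 peak, neither part could reach the share of the list. In the top score decile of replicate 2, 3 of 6 window peaks had FOXA1, against 83.7% of that decile in the list. The replicate 2 peaks of the window without FOXA1 had a median score of 123 and those with FOXA1 one of 198, against 108 and 197 in the whole list. The highest without FOXA1 were the regions at chr12:6072112-6073576 before CD9 (584), at chr12:6258905-6260126 between CD9 and TNFRSF1A (565) and in TNFRSF1A (549.9), and each had an H2087 peak of 779 to 1764. Among 371 windows of 1 Mb with at least 30 replicate 2 peaks, the FOXA1 share had a median of 50.0% and ran from 7.69% to 77.5%. It was lower than here in 13 of them.

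**Figure D5:**
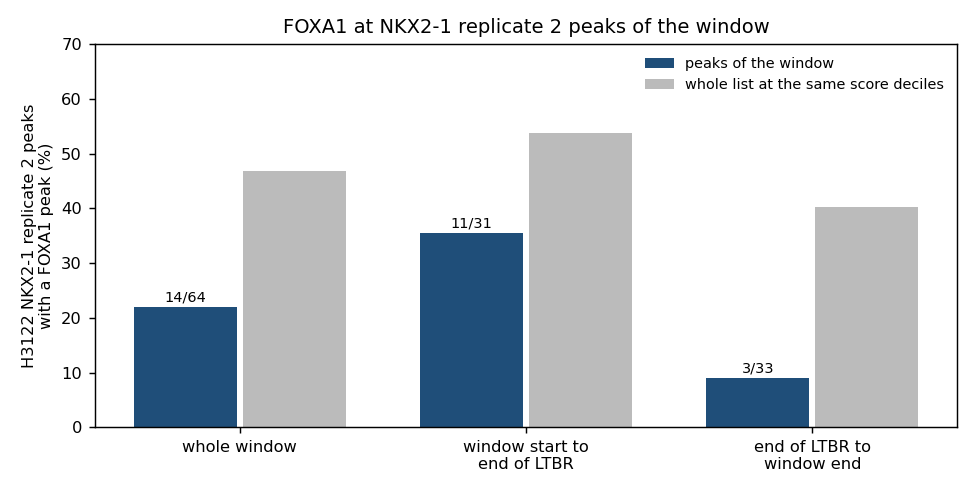
Percentage of H3122 NKX2-1 replicate 2 peaks with a FOXA1 peak, for the window and its parts on either side of the end of LTBR (blue, with counts) and for the whole list at the same score deciles (grey). The window has 21.9% against 46.8%, and the part beyond LTBR 9.09% against 40.2%. The window held 22 FOXA1 peaks for 64 replicate 2 peaks, and the part beyond LTBR 7 for 33. If each FOXA1 peak met 1 replicate 2 peak, neither share could reach that of the list.

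The windows most like this one in their relative densities over the 5 lists were in 19q13.32 (chromosome 19, 52 to 53 Mb), 11q13.1 (chromosome 11, 66 to 67 Mb) and 6p21.32 (chromosome 6, 33 to 34 Mb). Likeness was the Euclidean distance over the 5 lists of the log2 of relative density plus 0.5, and was 0.679, 0.778 and 0.890 among 3066 windows. Replicate 2 had 47, 44 and 40 peaks in them, of which 44.7%, 31.8% and 32.5% had FOXA1.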

How the data were processed

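Peak lists of 5 ChIP-seq libraries were analysed. Per the submitters' processing notes, Bowtie, MACS 1.4.0 and the build hg18 were used; the input behind each list and the calling thresholds are not stated there. Each deposited list gives a score per peak, the authors' own value. Its scale is not stated; the lowest score was 50.0 in H3122 replicate 1 and 60.0 in the other lists, so replicate 1 reaches lower scores. Each list comes from 1 library, per the labels.

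Peaks overlapping the window were taken. Peaks on unplaced sequence were left out of shares. Sharing required an overlap of at least 1 bp, and NKX2-1 peaks overlapping across lists were merged. Regions were placed by midpoint in the gene intervals. Named were all regions in or within 10 kb of a gene, those in all 3 lines, and the highest peak of each list; other regions were named after their values were seen. Relative densities used hg18 chromosome lengths (GenomeInfoDb 1.38.1) and bands (circlize 0.4.16, R 4.3.3). Computations used Python 3.11.15, numpy 2.4.6, pandas 2.3.3, scipy 1.17.1 and matplotlib 3.10.9. Overlap counting was tested on simulated data with planted overlaps, all of which were found. Intervals are 95% Wilson intervals. The window, genes and lists were chosen with earlier results of these data known, and the comparisons by score decile and by FOXA1 share of windows after the data were seen. Alternatives changed the score minimum, list length, overlap and merging rules, window and H3122 replicates. No result has a test, since H1819, H2087 and FOXA1 have 1 list each and the members were chosen on these values.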

Additional observations from a re-analysis of the deposited data

How the results depend on the processing

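No result has a test, so the alternatives show only how values move. Of 81 alternative values over 15 results, 60 stayed within 1.5 times the value, or within its interval for the FOXA1 share, and 21 moved further. No density fell below the list mean, the lowest being 1.09 times for FOXA1 with the window 250 kb up. Counts have no direction that could reverse, and a reversal of the FOXA1 share against the list was not assessed. With scores of at least 100, the window held 4 peaks of H3122 NKX2-1 replicate 1, 41 of replicate 2, 9 of H1819 and 14 of FOXA1; 47 NKX2-1 regions were left, and 0 were in all 3 lines with both replicates, since the replicate 1 peaks there score below 100. When every list was shortened to its 7469 best peaks, the window held 7 peaks of replicate 2, 9 of H1819, 17 of H2087 and 3 of FOXA1, in 32 regions, 30 of them without FOXA1, and 10 in or near the 4 genes. That setting also shortened the FOXA1 list from 42437 peaks, which by itself leaves fewer regions with FOXA1. Moving the window 250 kb up left 8 replicate 1 peaks, or 3.30 times the list mean. A window of 500 kb around the genes held 13 H1819 and 18 H2087 peaks, and had 12.4 times the mean in replicate 1 and 2.61 times for FOXA1. Without replicate 1, or with either H3122 replicate accepted, 8 regions were in all 3 lines, in place of 3; without replicate 2 there were 3. The FOXA1 share of replicate 2 peaks was 17.1% (7 of 41) with scores of at least 100 and 28.6% (2 of 7) with shortened lists. It was 21.9% (14 of 64) with the stricter overlap rule, and 33.3% (5 of 15) in replicate 1. Whole-list shares with raised scores or shortened lists are not given, so these values do not show whether the share stays below that of the list. No paired analysis was possible because no result comes from a test and H3122 alone has a second list. Depth is unknown in all lists, and a missing peak does not show that the factor is absent.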
